A study of Mus musculus with 2 samples.

Results

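The replication-dependent histone genes of the mouse were examined in brain of Plzf lu/lu embryos and their wild-type counterparts at E10.5. They were taken as every gene name on the array that begins with Hist1h, Hist2h, Hist3h or Hist4h, the older symbols of the clustered histone genes. This gave 56 of the 37074 gene names on each array, measured by 68 probes in 77 spots. They comprised 6 genes of the linker histone H1, 18 of H2A, 14 of H2B, 9 of H3 and 9 of H4. Among them, Hist1h2al and Hist3h2bb-ps carry the pseudogene symbols H2af-ps2 and H2bu1-ps in RefSeq, and neither passed the signal filter given below. The Hist1 cluster on chromosome 13 held 42 of them, the Hist2 cluster on chromosome 3 held 10, the Hist3 cluster on chromosome 11 held 3, and Hist4h4 on chromosome 6 was the single gene of its group.

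RNA from forebrain and midbrain at E10.5 was compared on 2 Agilent arrays with 2 dyes. On each array 1 wild-type sample (C57BL/6) was labeled with Cy3 and 1 lu/lu sample (luxoid) with Cy5, and the labels call the 2 arrays biological replicates. Luxoid mice are homozygous for a spontaneous single-base change in Plzf that truncates the protein. The number of embryos behind a sample is not given in the sources used here. The dyes were not exchanged, so dye and genotype cannot be told apart. All ratios below are the processed signal of lu/lu over wild type on the log2 scale, so values above 0 are higher in lu/lu.

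The mutated gene Zbtb16 (Plzf) read 433 in wild type and 172 in lu/lu on array 1, and 546 and 211 on array 2, at its brighter probe. This gives log2 ratios of -1.33 and -1.37, although a change of 1 base does not remove the probed sequence and the lu/lu signal did not pass the signal filter on array 1. Of the markers of forebrain and midbrain, Emx2, Lhx2, Six3 and Otx2 passed the filter, and the midbrain gene En1 did not, with wild-type signals of 3.86 and 3.70.

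Replication-dependent histones package newly made DNA, and their genes are transcribed mainly in S phase of dividing cells such as the neuroepithelium. Their mRNAs usually carry no poly(A) tail and end instead in a short stem-loop bound by Slbp, the stem-loop binding protein. Some of these genes also yield longer polyadenylated transcripts that run past the stem-loop. How far the labeling took up mRNA without a poly(A) tail was not tested. The signals and ratios below may therefore not be those of the stem-loop mRNA. The copies within a class encode nearly the same protein, so a probe in the coding part can take up RNA of several copies.

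The stem-loop was searched for in each 60-base probe as 6 bases starting with GG, a loop of 4 bases, and the reverse complement of the 6 bases. It stood whole in probes of 6 genes, of which 5 had a loop starting with TT and 1, Hist1h3g, another loop. The probes of 4 further genes ended inside it and 1 began inside it. Some of these sites are shown because they mark where the usual transcript ends on the probe. The arms of the stem are in capitals.
Hist1h2bf: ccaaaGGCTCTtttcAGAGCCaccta
Hist1h3g: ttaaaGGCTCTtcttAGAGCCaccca
Hist1h3i: caaaaGGCTCTtttcAGAGCCccctc
Hist1h4m: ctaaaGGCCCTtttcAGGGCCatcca
Hist2h2bb: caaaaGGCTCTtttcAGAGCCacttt
The arms are the same in these sites except in Hist1h4m, and the loop differs only in Hist1h3g.

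Probes of different members were compared base by base without gaps, and 45 or more identical bases of 60 were counted as a match. The probes of 12 members matched another member, 8 of H2A and 4 of H4. Probe sequences alone were compared, so this is a lower limit of the sharing. The H2A probes are shown because the ratios of these genes cannot be assigned to 1 gene. Capitals mark a run of 34 bases held by the probes of 5 genes.
Hist1h2aa: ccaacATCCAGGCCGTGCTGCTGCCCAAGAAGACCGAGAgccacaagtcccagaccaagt
Hist1h2af: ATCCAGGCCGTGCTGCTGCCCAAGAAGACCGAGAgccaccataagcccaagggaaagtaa
Hist1h2ah: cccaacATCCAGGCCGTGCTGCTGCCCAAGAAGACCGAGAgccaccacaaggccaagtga
Hist1h2ak: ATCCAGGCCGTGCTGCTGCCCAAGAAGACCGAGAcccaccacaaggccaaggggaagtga
Hist2h2ac: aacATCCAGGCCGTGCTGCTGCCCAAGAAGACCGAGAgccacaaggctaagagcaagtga
Hist2h2aa2: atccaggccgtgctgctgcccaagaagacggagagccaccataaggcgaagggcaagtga
In mm9 these probes lie on chromosome 13 at 24026659-24026718 for Hist1h2aa, 23626113-23626172 for Hist1h2af, 22127035-22127094 for Hist1h2ah and 21845304-21845363 for Hist1h2ak. On chromosome 3 they lie at 96024378-96024437 for Hist2h2ac and at 96043781-96043840 for Hist2h2aa2.

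Of the 56 genes, 39 passed the filter, which asked for a processed signal above 200 and a signal-to-noise ratio of 5 or more in each of the 4 channels. They were 5 genes of H1, 12 of H2A, 9 of H2B, 6 of H3 and 7 of H4. Of the 17 others, 11 were well above background in every channel but did not meet these limits, 4 in some channels, and 2 (Hist1h2ad and Hist2h2aa1) in none. Hist1h2ac was well above background in lu/lu only, and its signals of 8.77 and 9.45 lay too near the detection limit for a fold. No member spot was saturated.

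None of the 39 genes was higher, and none was lower, beyond 1.3-fold on both arrays. Over the 10600 genes that passed, these shares were 2.58% and 0.736%. The test was limma over all 10600 genes with Benjamini-Hochberg adjustment, and 0 histone genes had an adjusted p below 0.05, against 0.0283% of all genes. At an unadjusted p below 0.05 there were 8 histone genes, 4 higher and 4 lower, and the share of all genes was 27.8%. The smallest adjusted p among the histone genes was 0.064. With 2 arrays each test rests on 1 residual degree of freedom and on the variance pooled across genes.

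The members did not move as a block. Of the 12 H2A genes, 10 were above 0 on both arrays. H1, H2B and H3 were mostly below 0 on array 1 and near or above 0 on array 2. The probes of 8 of these 10 H2A genes match another member and do not give independent values. The H2A genes without such a match had means of 0.25 (Hist1h2ab), 0.16 (Hist1h2ao), 0.02 (Hist3h2a) and -0.27 (Hist1h2ai). The median over the 39 genes was -0.25 on array 1 and 0.10 on array 2, beside 0.02 and -0.00 over all genes tested. On array 1, 9 of the 39 genes were lower beyond 1.3-fold (all genes 5.58%) and 0 were higher (8.25%). On array 2, 0 were lower (1.96%) and 2 were higher (4.50%). Both arrays gave a ratio above 0 for 15 genes (37.3% of all genes) and below 0 for 11 (35.4%). The remaining 13 were below 0 on array 1 and above 0 on array 2 (11.5%). No member went the opposite way, as 1681 of the 10600 genes tested did.

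**Figure D1:**
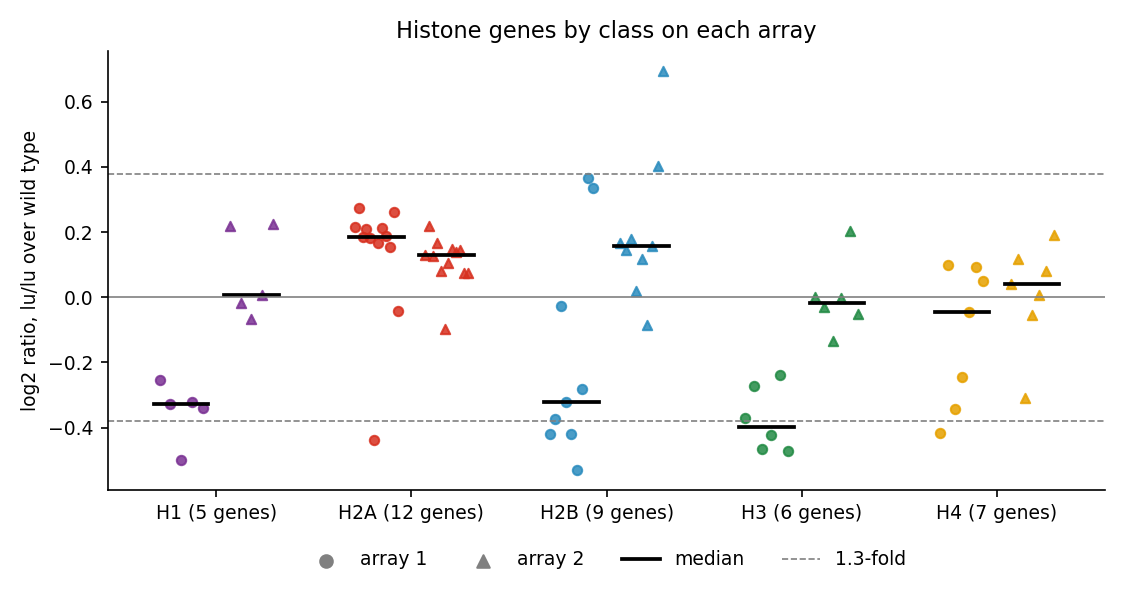
Log2 ratio of lu/lu to wild type (vertical axis) of each histone gene that passed the filter, by class, with circles for array 1 and triangles for array 2. Black bars are medians and dashed lines mark 1.3-fold. The medians of H1, H2B and H3 lie between -0.40 and -0.32 on array 1 and between -0.02 and 0.16 on array 2. Those of H2A are 0.19 and 0.13, and 8 of the 12 H2A genes have probes that match another member.

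**Figure D2:**
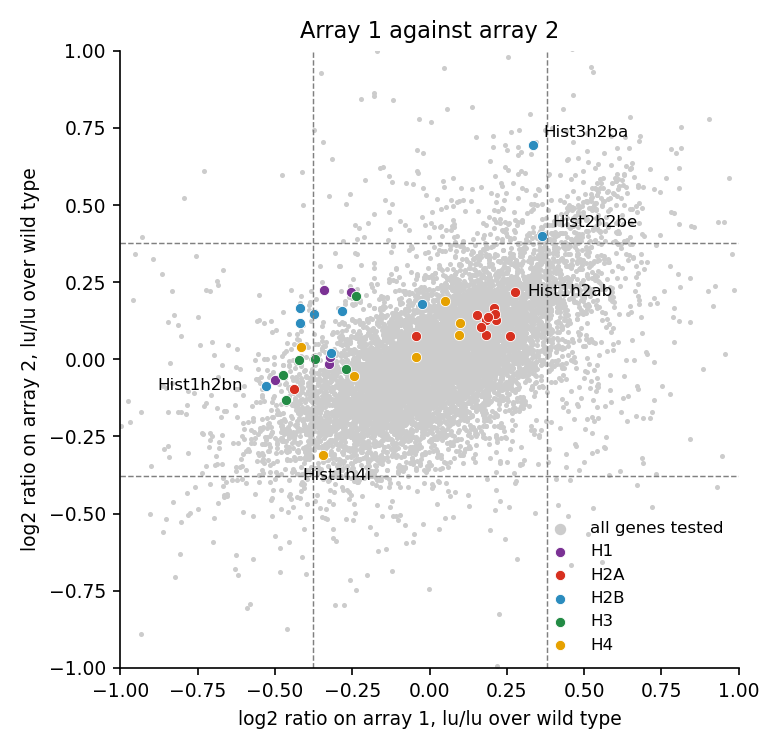
Log2 ratio on array 1 (horizontal) against array 2 (vertical), with the genes tested in grey, histone genes in color by class, and 1.3-fold as dashed lines. No histone gene lies past 1.3-fold on both arrays; 53 genes, none of them a histone gene, fall outside the axes.

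Linker histones of the H1 class bind the DNA between nucleosomes. All 5 were lower in lu/lu on array 1, with ratios from -0.50 to -0.25, and on array 2 they lay between -0.07 and 0.22. Hist1h1c read 896 in wild type and 633 in lu/lu on array 1, and 668 and 637 on array 2. Its mean log2 ratio of -0.28 (95% interval -0.58 to 0.01) was the lowest of the class and did not pass (adjusted p = 0.19 in limma). The wild-type sample of array 1 thus stood above the other 3 samples. Hist1h1e had 9980 and 7884 on array 1 and 6425 and 7507 on array 2, so that the genotypes were in the opposite order on the 2 arrays. Hist1h1b and Hist1h1d had ratios of -0.33 and -0.32 on array 1 and -0.02 and 0.01 on array 2. Hist1h1a was nearest to 0, with -0.25 and 0.22. The testis linker histone Hist1h1t did not pass the filter, with signals from 82.8 to 135.

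H2A forms a dimer with H2B in the nucleosome core. Of the 12 H2A genes, 10 were above 0 on both arrays, and their ratios ran from 0.15 to 0.27 on array 1 and from 0.07 to 0.22 on array 2. Hist1h2ab had signals of 33817 in wild type and 40909 in lu/lu on array 1, and 33300 and 38762 on array 2. Both lu/lu values were above both wild-type values. The mean ratio was 0.25 (95% interval 0.06 to 0.43) and did not pass (adjusted p = 0.11 in limma). Hist1h2ag followed with 0.21 and 0.17, and Hist1h2an with 0.21 and 0.15. The probe of Hist1h2ah was the brightest of all members, with 110120 and 124840 on array 1 and 113105 and 119530 on array 2, and its ratios were 0.18 and 0.08. Hist1h2aa, a variant known from testis, read 77279 to 89697, and its ratios of 0.21 and 0.13 were close to those of the probes that share its sequence. These near-identical probes do not give independent values.

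Hist1h2ai was the H2A exception, with 2410 and 1779 on array 1 and 1898 and 1775 on array 2. Its ratios of -0.44 and -0.10 gave a mean of -0.27 (95% interval -0.52 to -0.01; adjusted p = 0.17 in limma). Its probe ends inside the stem-loop and matched no other member. Hist3h2a was nearest to 0, with -0.04 and 0.07.

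H2B was the class with the widest range. Hist3h2ba read 369 in wild type and 465 in lu/lu on array 1, and 352 and 570 on array 2. Both lu/lu values exceeded both wild-type values, by 1.26-fold and 1.62-fold within the arrays. The mean log2 ratio was 0.52 (95% interval 0.25 to 0.78), and the adjusted p in limma was 0.069. These values are from the brighter probe of the gene, which lies past the stem-loop. The other probe, which ends inside the stem-loop, had ratios of 0.07 and 0.46. Hist2h2be read 447 and 575 on array 1 and 452 and 596 on array 2. Its folds were 1.29 and 1.32, the mean log2 ratio was 0.38 (95% interval 0.20 to 0.57), and the adjusted p in limma was 0.064. At the probes standing for them, both genes lay just inside 1.3-fold on array 1 and beyond it on array 2. These probes had a GC content of 35.0%, and those standing for the 9 H2B genes ranged up to 66.7%. Hist1h2bc, whose probe also had 35.0% GC, followed with -0.03 and 0.18.

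The remaining H2B genes were below 0 on array 1. Hist1h2bn had 2354 and 1631 on array 1 and 2315 and 2180 on array 2, with ratios of -0.53 and -0.09 (mean -0.31, adjusted p = 0.17 in limma). Here the lu/lu sample of array 1 was the sample that stood apart. Hist1h2bm, with 3817 and 2853 on array 1 and 2914 and 3159 on array 2, had ratios of -0.42 and 0.12. Hist1h2bf had -0.32 and 0.02, and Hist2h2bb, whose probe holds the whole stem-loop like that of Hist1h2bf, had -0.28 and 0.16. The testis variant Hist1h2ba had -0.42 and 0.17.

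H3 pairs with H4 in the core of the nucleosome. The 6 H3 genes were all below 0 on array 1, from -0.47 to -0.24, and ranged from -0.13 to 0.20 on array 2. Hist1h3f read 727 and 526 on array 1 and 628 and 573 on array 2, and its mean of -0.30 (95% interval -0.55 to -0.05) had an adjusted p of 0.14 in limma. Both wild-type values were above both lu/lu values. Hist2h3b followed with -0.47 and -0.05 and Hist1h3g with -0.42 and -0.00. Hist1h3c, the second brightest of the class, had 13538 and 10465 on array 1 and equal signals of 11012 and 11012 on array 2. Hist1h3d had -0.27 and -0.03. Hist1h3i was nearest to 0, with -0.24 and 0.20.

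H4 ranged from bright probes near 0 to dimmer probes below it. Hist1h4i read 1705 and 1344 on array 1 and 1831 and 1477 on array 2. Its ratios of -0.34 and -0.31 differed little between the arrays, and both lu/lu values lay below both wild-type values. Its mean of -0.33 (95% interval -0.51 to -0.14) did not pass (adjusted p = 0.081 in limma), and neither ratio was beyond 1.3-fold. Hist1h4c had -0.42 and 0.04 and Hist1h4j -0.25 and -0.06. The probes of both match other H4 members, so these ratios cannot be assigned to 1 gene. At the other end Hist4h4 had 0.05 and 0.19, Hist1h4d 0.10 and 0.12, and Hist2h4 0.09 and 0.08. Hist1h4k was nearest to 0, with -0.04 and 0.01.

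The probe of Hist1h4d was spotted 10 times on each array and shows the technical spread of a ratio. The 8 spots used on array 1 ranged from 0.06 to 0.13 (mean 0.10 ± 0.02, SD), and the 9 used on array 2 from 0.08 to 0.17 (mean 0.12 ± 0.03, SD). These spots are 1 sample pair each and no replicates of the genotype.

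The ratio was higher on array 2 than on array 1 in 28 of the 39 genes, where 46.4% of all genes tested were. This held for 5 of 5 H1, 9 of 9 H2B, 6 of 6 H3 and 6 of 7 H4 genes, but for 2 of 12 H2A genes. The 2 were not among the 8 H2A genes whose probe matches another member. Each genotype was therefore also set against itself between the arrays, as the log2 signal on array 1 minus that on array 2, less the median of all genes tested. In wild type, the median was 0.26 for H1, 0.30 for H2B and 0.28 for H3, and the value was above 0 in 5 of 5, 8 of 9 and 6 of 6 genes. In lu/lu, it was -0.09 for H1, -0.12 for H2B and -0.14 for H3, and the value was above 0 in 1 of 5, 0 of 9 and 0 of 6 genes. For H4 the medians were 0.02 in wild type and -0.07 in lu/lu, with 5 of 7 and 0 of 7 genes above 0. For H2A both medians were within 0.01 of 0. Over all genes tested the SD of this difference was 0.21 in wild type and 0.15 in lu/lu, and no normalization between the arrays was applied by the authors.

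Markers of several cell types and regions also differed between the wild-type samples. Lhx2 and Emx2, transcription factors of the forebrain, read 2070 and 1212 in wild type on array 1 and 1196 and 675 on array 2. Other markers of forebrain and midbrain did not all go this way. In wild type Six3 read 261 on array 1 and 255 on array 2, and Otx2 read 2699 and 2941. The median difference, centred as above, was 0.21 for 3 neuron markers and -0.57 for 3 surface ectoderm markers. The lu/lu medians were -0.42 and 0.42. The wild-type sample of array 1 also carried more RNA of primitive erythrocyte markers. Of 5 marker genes, 4 passed the filter (Hbb-y, Hba-x, Hbb-bh1 and Alas2), and in wild type they stood 0.85 to 1.82 higher on array 1 than on array 2 (median 1.52). Hba-x, an embryonic globin, read 64597 in wild type on array 1 and 18101 on array 2. In lu/lu the 4 genes differed by -0.14 to 0.61 between the arrays. The part of these cells and regions in the histone ratios was not tested. In whole tissue, fewer cells of a type and less RNA per cell cannot be told apart.

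**Figure D3:**
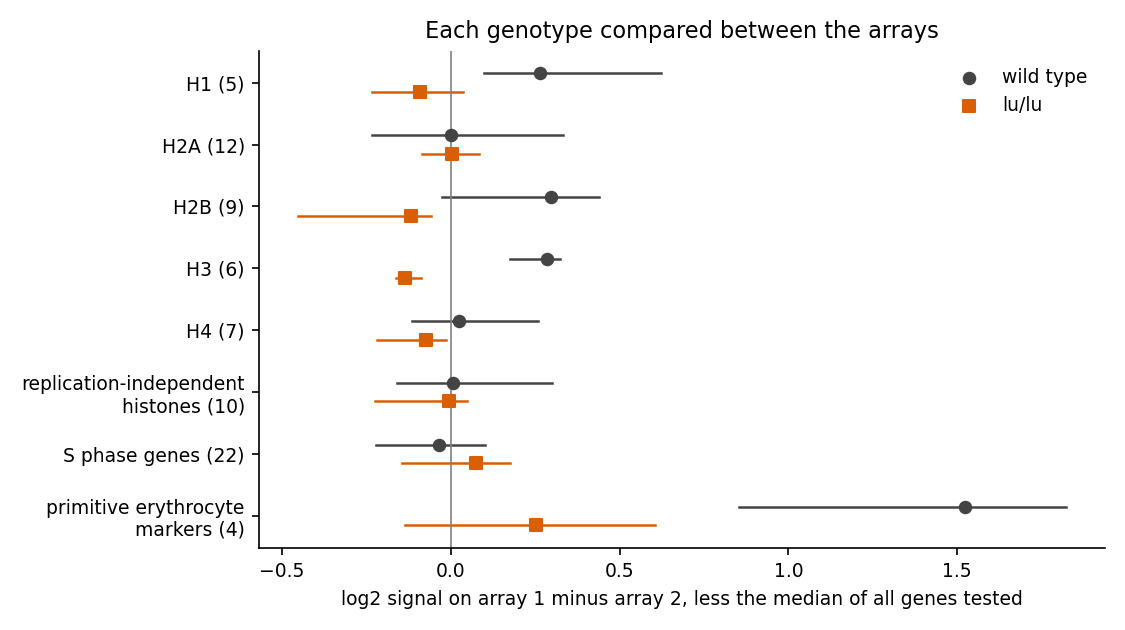
Log2 signal on array 1 minus array 2 within a genotype, less the median of all genes tested (horizontal axis), for histone classes and gene lists with the number of genes in parentheses. Symbols are medians and lines run from the lowest to the highest gene; wild-type H1, H2B and H3 have medians from 0.26 to 0.30 and the erythrocyte markers 1.52, while S phase genes are at -0.04.

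The ratios differed between ranges of signal, without a steady order. The 11 members with a mean signal over 50000 had medians of 0.18 on array 1 and 0.13 on array 2, and the 177 other genes in that range 0.09 and 0.04. The 12 members between 1000 and 5000 had medians of -0.40 and 0.01, where the 3526 other genes had 0.03 and -0.00. The 8 members under 1000 had -0.25 and 0.19, so the dimmest members had the highest median on array 2. The 5 members from 5000 to 20000 had -0.33 and -0.00, and the 3 from 20000 to 50000 had 0.09 and 0.08. Probe GC also moved with the ratio. Over all genes tested Spearman's rho between probe GC and ratio was -0.38 on array 1 and -0.20 on array 2, a description across genes that share a probe chemistry and an array. Among the 39 members it was -0.01 and -0.32. Most members, 22 of 39, had a probe of 55% GC or more, and their medians were -0.14 and 0.08, beside -0.14 and -0.06 for the 1005 other genes in that range. With the trend on GC removed, the H2A median rose from 0.16 to 0.25 and no member passed limma. The part of signal and GC in the class differences was not tested.

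**Figure D4:**
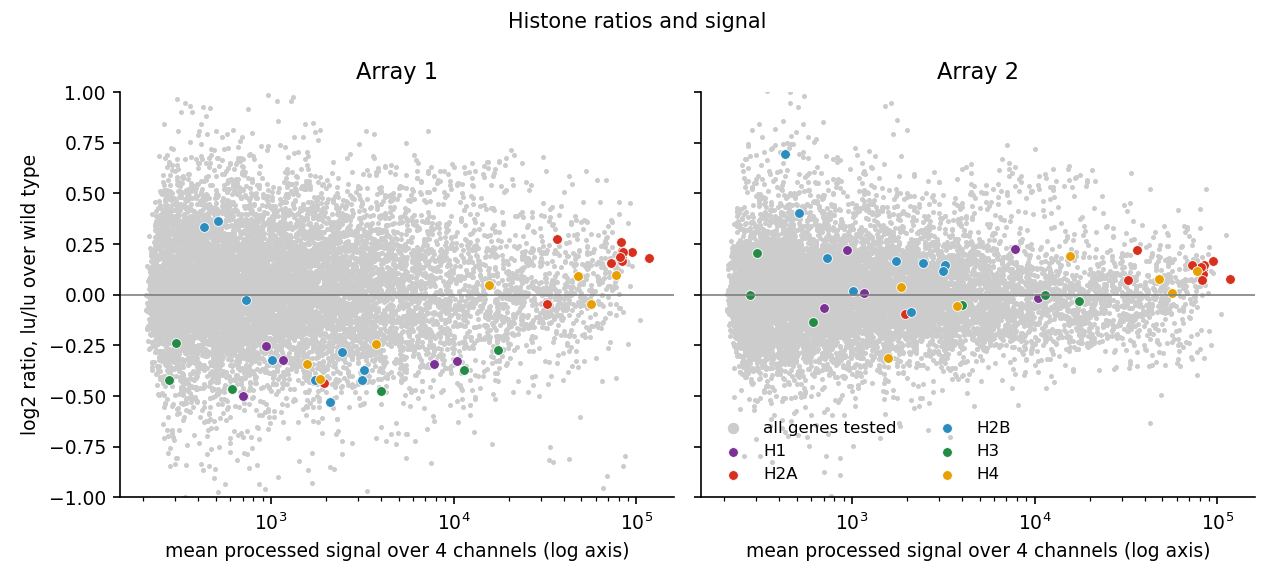
Log2 ratio of lu/lu to wild type (vertical) against the mean processed signal over the 4 channels (horizontal, log axis) on each array, with the genes tested in grey and histone genes in color by class. The bright H2A and H4 probes at the right lie near or above 0 on both arrays, and the members between 1000 and 5000 have a median of -0.40 on array 1 and 0.01 on array 2.

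Of 12 members with 2 probes, 7 could be compared along the gene, and in these the probe nearer the 3' end gave the higher ratio. The comparison and its limits were chosen after the values were seen. The 7 genes had 2 non-overlapping probes at most 1000 bases apart, both well above background in every channel, and the downstream probe was higher on both arrays in 7 of 7. The median difference was 0.21 on each array. Among 1988 such pairs of other genes, the downstream probe was higher on both arrays in 51.1%, with median differences of 0.13 and 0.06.

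The 5 genes outside these limits did not all go this way. The downstream probe of Hist2h2bb lies further than the limit from the upstream one and was dim, with signals from 9.57 to 16.8, and had -0.69 and -0.36 against -0.28 and 0.16 upstream. In Hist1h1d (-1.02 and -0.95) and Hist2h2ac (-0.53 and -0.74) the downstream probe was also below the upstream one (-0.32 and 0.01, and 0.26 and 0.07), but it was well above background in none and in 1 of the 4 channels. In Hist2h3c2 the downstream probe was the higher one (0.45 and 1.08 against 0.18 and 0.44), with both probes well above background in 3 of 4 channels. The probes of Hist1h2ai lie too far apart in the deposited annotation. It places the brighter one over the probes of Hist1h2an and Hist1h2ao, so the order of the probes along the gene is not certain. The brighter probe gave -0.44 and -0.10, and the dimmer one gave -1.05 and 0.37.

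In Hist3h2ba, the upstream probe, which ends inside the stem-loop (chromosome 11, 58762804-58762863, mm9), had ratios of 0.07 and 0.46. The downstream probe, 100 bases further on (58762964-58763023), had 0.34 and 0.69. In Hist1h1c the probe ending inside the stem-loop had -0.50 and -0.07, and a probe 628 bases further on, too dim for the filter, had -0.02 and 0.18. Both downstream probes lie past the stem-loop, where the usual histone mRNA has ended. Hist2h2be had 0.15 and 0.20 upstream and 0.36 and 0.40 downstream, with 137 bases between the probes. Hist3h2a had -0.04 and 0.07 upstream and 0.02 and 0.47 downstream, 507 bases apart. In these 4 genes and in Hist1h4d, the downstream probe also had the lower GC content. In Hist1h2bb (-0.66 and -0.06 upstream, -0.37 and 0.15 downstream) and in Hist1h4k (-0.15 and -0.07, then -0.04 and 0.01) it did not. The upstream probes of Hist1h4d and Hist1h4k also match other H4 members. Among the other genes the downstream probe was higher on both arrays in 620 of 1127 pairs where it had the lower GC and in 396 of 861 where it had not.

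**Figure D5:**
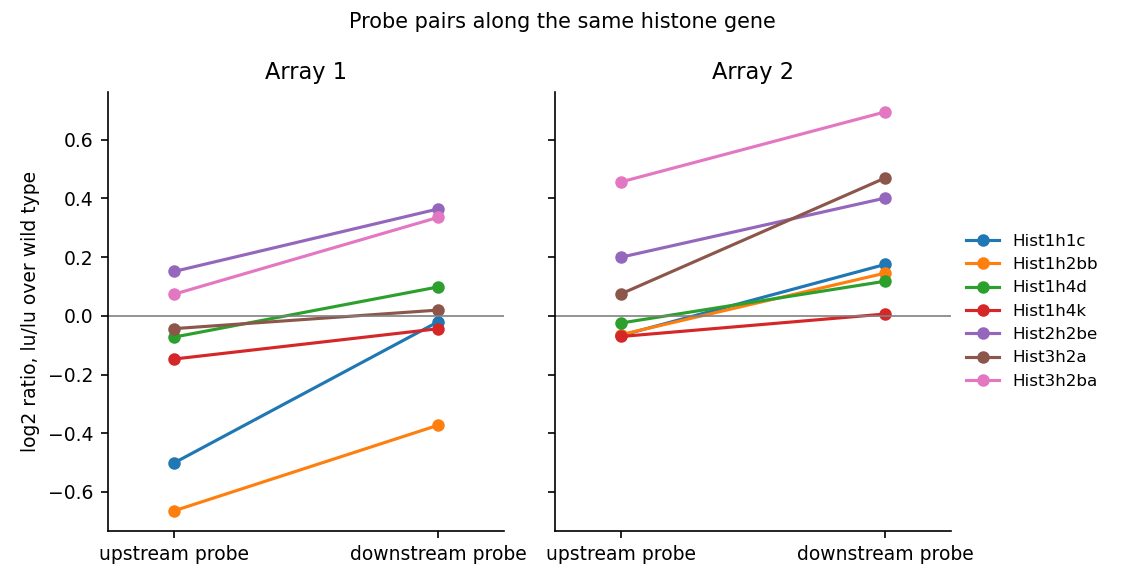
Log2 ratio of lu/lu to wild type (vertical) at the upstream and the downstream probe of 7 histone genes on each array, with a line for each gene. Every line rises, with a median difference of 0.21 on array 1 and on array 2.

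Histone promoters carry a TATA box, CCAAT boxes bound by NF-Y and, in H2B genes, an octamer bound by Oct1 (Pou2f1). Promoters of 49 members were found in the RefSeq table (GRCm38.p6), and the 250 bases before the start were searched. TATAAA on the coding strand stood in 20 of the 49 (40.8%) and in 8.94% of the promoters of 27025 genes. CCAAT on either strand stood in 41 (83.7%, all genes 37.5%), among them all H1, H2A and H2B promoters found but only 2 of 8 of H4. ATTTGCAT on either strand stood in 13 (26.5%, all genes 1.81%), 7 of H2A and 6 of H2B. A match is a description of the letters and not a bound site.

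Several H2A and H2B genes lie head to head and share the DNA between their starts. There were 6 such pairs with starts at most 500 bases apart, and in 2 of them both genes passed the filter. Hist1h2ak and Hist1h2bn start 164 bases apart, and their ratios were 0.17 and 0.10 for Hist1h2ak and -0.53 and -0.09 for Hist1h2bn. Hist1h2aa and Hist1h2ba start 281 bases apart and had 0.21 and 0.13 against -0.42 and 0.17. The H2A gene was thus above the H2B gene on array 1 in both pairs, and on array 2 in 1 of 2, although the H2A probes also match other H2A copies. The probe of Hist1h2ba also comes close to a match with another member. The 100 bases before each start of one pair are shown, with those of Hist2h2bb, which holds an octamer. Capitals mark the motifs.
Hist1h2ak: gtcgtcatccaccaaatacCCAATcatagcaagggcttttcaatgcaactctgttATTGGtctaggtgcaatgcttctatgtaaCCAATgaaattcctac
Hist1h2bn: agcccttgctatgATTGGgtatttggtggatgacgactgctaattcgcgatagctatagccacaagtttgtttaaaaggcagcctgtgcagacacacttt
Hist2h2bb: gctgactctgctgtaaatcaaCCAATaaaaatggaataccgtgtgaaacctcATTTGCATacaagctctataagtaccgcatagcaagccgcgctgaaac
In GRCm38.p6 these lie on chromosome 13 at 21753913-21754012 on the minus strand for Hist1h2ak and at 21753976-21754075 on the plus strand for Hist1h2bn, and on chromosome 3 at 96269600-96269699 on the plus strand for Hist2h2bb. The CCAAT box upstream in Hist1h2ak is the same DNA as the ATTGG in Hist1h2bn.

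Slbp, which binds the stem-loop and is needed for the processing and translation of histone mRNA, was lower in lu/lu on both arrays. It read 770 in wild type on array 1 and 771 on array 2, with ratios of -0.28 and -0.41. The mean did not pass (adjusted p = 0.081 in limma), and the 1.3-fold mark was crossed on array 2 only. Of 20 genes for histone mRNA processing, 18 passed the filter, and 0 were beyond 1.3-fold on both arrays in either direction. Their medians were 0.15 and 0.01. Npat, the coactivator of histone genes that is phosphorylated by cyclin E and Cdk2, did not pass the filter, with wild-type signals of 183 and 198 and ratios of -0.05 and -0.16. Of 11 genes for histone gene transcription, 7 passed, 0 were beyond 1.3-fold on both arrays, and the medians were 0.19 and -0.02.

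Among 22 histone chaperones and related factors, 19 passed. Beyond 1.3-fold on both arrays, 1 was higher (all genes 2.58%) and 1 was lower (all genes 0.736%). Mms22l, a partner of Tonsl at damaged replication forks, had ratios of 0.56 and 0.51 (adjusted p = 0.051 in limma). Nap1l4, a chaperone of H2A and H2B, had -0.65 and -0.44 (adjusted p = 0.052 in limma). Of the 22 S phase genes all passed, 0 were beyond 1.3-fold on both arrays, and the medians were 0.09 and -0.01, from -0.43 to 0.50 on array 1 and from -0.32 to 0.20 on array 2.

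Replication-independent histones are as a rule not tied to S phase and are made mostly from polyadenylated mRNAs, although H2afx also yields a stem-loop form. Of 12 such genes, 10 passed and 0 were beyond 1.3-fold on both arrays. Their medians were 0.10 on array 1 and 0.07 on array 2, and between the arrays the wild-type median differed by 0.01. H3f3a, which encodes H3.3, was the highest on array 1, with 0.38 and 0.29 (adjusted p = 0.081 in limma). H2afj had 0.25 and 0.14, and its probe matched 2 member probes, with 45 identical bases at best. Cenpa, the H3 of the centromere, had -0.18 and 0.08, and H2afz, which encodes H2A.Z, 0.15 and 0.07.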

How the data were processed

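RNA of 2 wild-type (Cy3) and 2 lu/lu (Cy5) samples was measured on 2 arrays. The authors amplified and labeled it with a low-input kit and extracted the scans in Feature Extraction (version 10.7.3.1), with background subtraction, and normalized the dyes within each array. The deposited values are spot intensity and a table of log2 ratios. Probe positions are those of the deposited files, in build mm9.

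Control and outlier spots were left out (137 and 126 outlier spots), and spots of a probe were averaged on the log2 scale. The probe with the highest mean signal stood for a gene. Genes passed with a processed signal above 200 and a signal-to-noise ratio (spot less background over the SD of the background) of 5 or more in all 4 channels. Log2 ratios went into limma (version 3.58.1, R 4.3.3) as an intercept model with eBayes, with Benjamini-Hochberg adjustment over 10600 genes, after a test on simulated data. Tables were read with data.table (1.17.8) in R and with pandas (2.3.3) and numpy (2.4.6) in Python (3.11.15), and figures drawn with matplotlib (3.10.9). The number of arrays limits the precision.

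Named members are, in each class, the 3 highest and the 3 lowest means and the one nearest 0 among those passing, plus any beyond 1.3-fold on both arrays or past limma (none were), Slbp and Npat, and pathway genes beyond 1.3-fold on both arrays, with further members given for their sequence or place. Members and lists were chosen with earlier results of these data known. Every member name matched 1 RefSeq gene, and 49 had a promoter sequence. The lists covered replication-independent histones, mRNA processing, transcription, chaperones, S phase, and markers of forebrain and midbrain, neural progenitors, neurons, primitive erythrocytes, endothelium, mesenchyme, surface ectoderm and macrophages. A marker of one list is not reported here. Alternatives were normexp (offset 50) with loess or median centring, the deposited table, other filters, other choices of probe, removal of the GC trend (lowess, span 0.67), 1.5-fold in place of 1.3-fold, both arrays averaged, eBayes with trend, unpaired channels, and each array alone. The comparison of probe pairs was added after seeing the data.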

Additional observations from a re-analysis of the deposited data

How the results depend on the processing

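The count of 0 histone genes higher beyond 1.3-fold became 1 (Hist1h2ah) with normexp and loess, where 2.69% of all genes were. It became 2 without a filter (Hist2h2aa1 and Hist2h3c2, neither well above background in every channel), where 4.57% of all genes were. For the mean of the arrays it was 2 (Hist2h2be and Hist3h2ba). That rule is looser for every gene, and the share of all genes under it was not counted. The 2 are therefore not read as a result about the histone genes. On single arrays 0 to 2 genes were higher and 0 to 9 lower, the 9 on array 1 alone. Normexp with median centring gave 25 higher and 34 past limma, but it moved the medians of all genes to 0.65 and 0.46. It also put 63.2% of all genes beyond 1.3-fold upward and 9644 of the 10600 genes past limma. Relative to that shift the histone medians were -0.20 and 0.18. Its unshifted medians were 0.58 over all members, 0.47 for H1, 1.23 for H2A, 0.48 for H2B, 0.36 for H3 and 0.85 for H4, and 0.50, 0.93, 0.91 and 0.85 for Hist1 to Hist4, against -0.12, 0.12, 0.27 and 0.12 as reported. Hist1h2bn (0.26), Hist1h3f (0.23) and Hist1h4i (0.24) changed sign there. The H2A median was 0.29 with normexp and loess and 0.25 without the GC trend, and the H4 median 0.11 without it. The Hist2 median was 0.18 with normexp and loess, 0.017 for genes well above background, 0.15 for single probes and 0.23 without the GC trend, Hist3 was 0.47 without a filter, and Hist4 0.24 without the GC trend. The cause of these moves was not tested. Where limma was run under an alternative other than median centring it called 0 members, unpaired channels (no replicate block) and eBayes with trend included. Without the 10 passing members whose probe matches another member, the median was -0.11, against -0.02 with them. Of 31 named members, 20 changed sign under median centring, 9 on array 2 alone and up to 4 elsewhere. No depth can be given for array signals.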

Other observations

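The deposited annotation places the probes of Hist1h2an (21902669-21902728), Hist1h2ao (21902695-21902754) and Hist1h2ai (21902706-21902779) over the same stretch of chromosome 13 in mm9. Hist1h2an and Hist1h2ao read 76748 to 93214 and had ratios of 0.21 and 0.15, and of 0.19 and 0.14. Hist1h2ai read 1775 to 2410, with -0.44 and -0.10. The 60 bases of its probe are spread over a longer stretch there and end inside the stem-loop.

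Other markers gave the following medians on the 2 arrays. Neural progenitors had 0.23 and 0.31 (4 of 4 passing), neurons -0.04 and 0.60 (3 of 4), mesenchyme -0.15 and -0.23 (5 of 5), surface ectoderm 0.54 and -0.34 (3 of 4) and macrophages -0.35 and -0.18 (2 of 4). Among forebrain and midbrain markers, Otx2 had 0.38 and 0.39, Six3 0.62 and 0.47, Emx2 -0.16 and 0.62, and Lhx2 -0.18 and 0.86. The single endothelial gene that passed, Emcn, had -0.63 and -0.68. Primitive erythrocyte markers had -1.02 and 0.07 (4 of 5). The medians of surface ectoderm, primitive erythrocytes and neurons were therefore on opposite sides of 0 on the 2 arrays, as were Emx2 and Lhx2. The neuron median on array 1 and the erythrocyte median on array 2 were near 0. Tubb3 was above 0 on both arrays (0.33 and 0.79) and Alas2 below it (-1.20 and -0.15), while the other passing markers of these lists changed side. The part of any of these cells in the histone ratios was not tested.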
